A study of Felis catus with 8 samples.

Results

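Liver gene expression of cats raised on a diet that joined trans fat, high-fructose corn syrup (HFCS) and monosodium glutamate (MSG) was compared with that of cats raised on standard chow. The comparison rests on 4 arrays chosen by their diet label, 2 for the combined diet and 2 for the control diet, of 8 arrays in the series. All animals were 9-month-old male Felis catus. The control diet was the commercial cat chow with nothing added. The combined diet held trans fat at 8.6%, HFCS at 24% and MSG at 1.125%. The other 4 arrays came from cats on chow with 1.125% MSG (2 arrays) and from cats on the same shares of trans fat and HFCS without MSG (2 arrays). Exposure began before conception in every group. Mothers were on their diet from 3 weeks before mating through pregnancy and nursing, and their sons were weaned onto it, so a difference between diets holds the mother's diet as well as the son's own. Per the labels each array is a cat with its own number, and both arrays of a diet are biological replicates. Per the same labels, RNA was extracted from 4 to 5 livers of each diet, more than the arrays given here. Litters are not named and pooling of RNA is not stated, so p-values measure the spread between these arrays only. Cat RNA was read with a human whole-transcript array, so a probe set reports a transcript of the cat to the extent that its sequence matches the human one. In whole liver, fewer cells of a type and less RNA per cell cannot be told apart.

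The liver makes cholesterol, fatty acids and triglycerides, packs them into lipoproteins, and turns cholesterol into bile acids. Sterol regulatory element-binding proteins (SREBPs) switch on the enzymes of cholesterol and fatty acid synthesis, and respond to sterols and insulin. The liver is also the main source of circulating insulin-like growth factor 1 (IGF1) and of the acute-phase proteins of inflammation, and it responds strongly to glucocorticoids. Trans fats are unsaturated fats with a straightened double bond, HFCS is a sweetener rich in free fructose, and MSG is the sodium salt of the amino acid glutamate. Cats are obligate carnivores whose natural food holds little sugar.

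The 8 arrays had median intensities of 5.25 to 5.28, and precision is limited by their number. Across 17910 genes, arrays of the same diet correlated with r between 0.946 and 0.968 and arrays of different diets with r between 0.917 and 0.956. On the first principal component, which held 35.4% of the variance, the control arrays stood at -22.2 and -20.9 and the combined-diet arrays at 22.7 and 15.2. The combined-diet arrays stood apart from each other on the next component (14.4% of the variance), at -6.16 and 23.5. Hepatocyte markers were present on all arrays, with a summed log2 intensity of 12.84 and 12.80 on control and 12.68 and 12.81 on the combined diet. None of the 16 measured hepatocyte markers passed the test described next (3 at an unadjusted limma p under 0.05).

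The first comparison asked how the combined diet differed from chow. Each gene was tested with limma on log2 intensity, with Benjamini-Hochberg adjustment over all genes and a threshold of 0.05, and rose and fell are used only of genes past it. Of 17910 genes, 103 rose (0.575%) and 104 fell (0.581%), together 1.16%, and all of them changed at least 1.5-fold. The median difference over all genes was 0.02 on the log2 scale. Of the 103 that rose, 47 rest on 1 probe set and 26 on 2, and of the 104 that fell, 20 rest on 1 and 14 on 2. The named increases and decreases were taken from genes on at least 3 probe sets whose median change was at least 50% of the mean change, which left 22 of the first and 51 of the second. List members past the threshold are named also where they rest on fewer. No mark of detection above background was used, so a difference that involves a group near the filter level (log2 2.43) has no exact size. The count depended on both control arrays: without control array 1 or control array 2, limma called no gene (lowest adjusted p = 0.0511 and 0.0566), although 1922 and 2016 genes had an unadjusted p under 0.05. It was 61 without combined-diet array 1, 113 without combined-diet array 2, 99 without either MSG array and 145 without either trans-fat/HFCS array.

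FST encodes follistatin, a secreted protein that binds and blocks activins and myostatin. Its log2 intensity was 4.34 and 4.24 on the control arrays and 6.36 and 6.38 on the combined-diet arrays, an increase of 2.08 (SE 0.173, adjusted p = 0.00512 in limma), or 4.2-fold. All 8 of its probe sets rose, by 1.68 to 2.42. FST was also high on the MSG arrays (6.92 and 6.88) and on the trans-fat/HFCS arrays (5.94 and 6.27), so control was the only diet on which it was low. INHBE, the activin E subunit made mainly by the liver, also rose, from 5.73 and 5.63 to 6.76 and 6.71 (log2 1.05, SE 0.172, adjusted p = 0.031, limma, 2 probe sets). These were the only 2 of 17 measured genes of thyroid hormone and activin signalling past the threshold, beside 0.575% of all genes that rose. The median of that list was near 0.

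OSGIN2, of a family named for growth inhibition under oxidative stress, was the named gene with the largest fall. It stood at 6.65 and 6.57 on control and at 4.25 and 4.52 on the combined diet (log2 -2.22, SE 0.178, adjusted p = 0.00512 in limma). The MSG arrays (both 4.43) and the trans-fat/HFCS arrays (4.14 and 4.42) lay in the same low range. ACSL4, which activates arachidonic acid for use in phospholipids, fell from 8.75 and 8.64 to 7.05 and 7.08 (log2 -1.63, SE 0.157, adjusted p = 0.00577, limma). Of its 15 probe sets, 14 were lower. ACSL4 was ordered by diet without overlap: MSG at 7.88 and 7.75, trans-fat/HFCS at 7.33 on both arrays, then the combined diet. The step from trans-fat/HFCS to the combined diet was -0.26 and missed the threshold (adjusted p = 0.664, limma).

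CCDC3, a secreted coiled-coil protein, was high on the combined diet alone among the named genes. It read 2.78 and 2.77 on control, 2.88 and 2.75 on MSG, 2.85 and 2.84 on trans-fat/HFCS, and 4.03 and 4.24 on the combined diet. The 6 arrays of the other diets lay close to the filter level, so the size of the increase is not exact. In the fit it was 1.36 over control (SE 0.162, adjusted p = 0.0102 in limma), and its 3 probe sets gave 2.14, 1.75 and 0.19. The probe set at 1.75 averaged 2.42 on those 6 arrays, below the filter level, and was kept through the combined arrays. A fit to the 4 arrays of control and combined alone ended the call (adjusted p = 0.0519), as did the median of its probe sets in place of their mean (adjusted p = 0.0923).

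**Figure D1:**
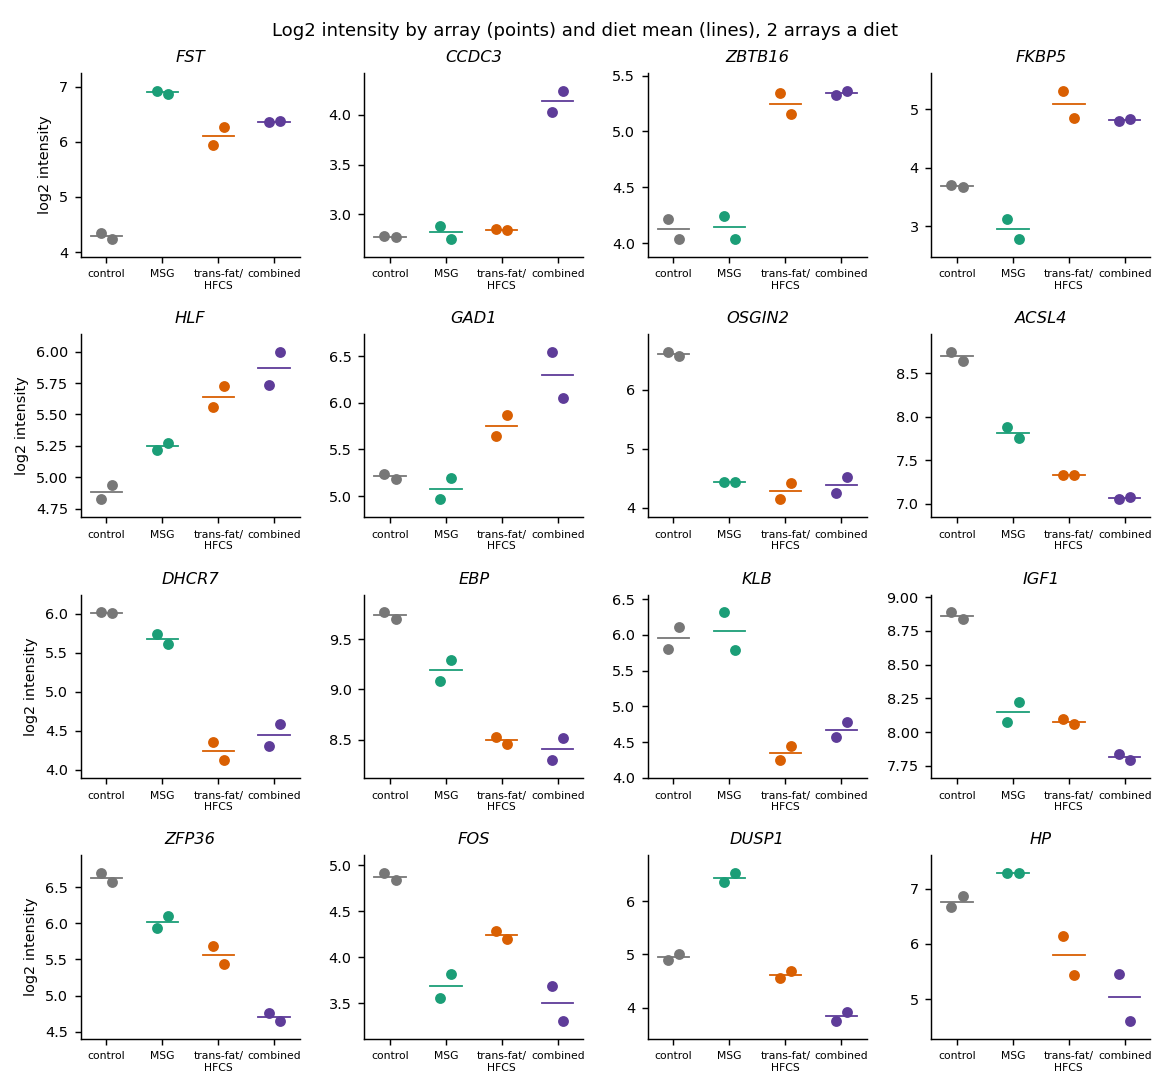
Log2 intensity (y axis, scaled per gene and not starting at 0) of 16 genes on each of the 8 arrays, by diet on the x axis; points are arrays and lines are diet means. All are genes past the threshold, and control and combined arrays do not overlap in any panel. Over all genes they did not overlap in 25.5% (higher) and 23.1% (lower). CCDC3 is high on the combined diet alone, and FST and OSGIN2 differ from control on all 3 other diets.

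Among the other named increases were genes of transcription and of the glucocorticoid response. ZBTB16, a zinc finger repressor induced by glucocorticoids, rose from 4.22 and 4.04 to 5.33 and 5.36 (log2 1.22, SE 0.170, adjusted p = 0.0183, limma). FKBP5, a co-chaperone that restrains the glucocorticoid receptor and is itself induced by it, rose from 3.70 and 3.66 to 4.80 and 4.84 (log2 1.14, SE 0.204, adjusted p = 0.0397). Both were as high on the trans-fat/HFCS arrays, where ZBTB16 differed from control by 1.12 and FKBP5 by 1.40, while on MSG they differed by 0.01 and -0.73. HLF, a clock-linked transcription factor, rose by 0.99 (SE 0.171, adjusted p = 0.0378, limma). The HLF probe set at 1.08 averaged 2.21 on the arrays of the other diets, below the filter level, and was kept through the combined arrays. The call of HLF was lost with the median of its probe sets and whichever array was left out. BRD9, a bromodomain subunit of a chromatin remodelling complex, rose by 1.41 (SE 0.179, adjusted p = 0.0121), but by only 0.22 (adjusted p = 0.277, limma) without the filter on dim probe sets. With the brightest probe set ZBTB16 stood at 0.36 (adjusted p = 0.312, limma) and lost its call. All 9 probe sets of FKBP5 were higher. Its call was lost with the brightest of them, with their median and with the 4 arrays of control and combined alone.

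The glucocorticoid list did not move one way. Of 21 measured members 2 rose (ZBTB16 and FKBP5) and 2 fell, beside 0.575% and 0.581% of all genes. A positive difference was seen in 11 and a negative one in 10, and the median was 0.01. The members that fell were GADD45B, a stress sensor that feeds into MAP kinase signalling, and DUSP1, a phosphatase that switches MAP kinases off. GADD45B stood at 5.28 and 5.41 on control and 4.09 and 3.89 on the combined diet (log2 -1.36, SE 0.164, adjusted p = 0.0108, limma). The circadian clock list had HLF as the only one of 19 measured members past the threshold, beside 0.575% of all genes that rose. CLOCK stood at -0.55 and CRY2 at 0.44 and neither passed (adjusted p = 0.193 and 0.214 in limma).

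The remaining named increases came from unrelated families. They were FHDC1, a formin-related protein of actin and microtubules (1.32), the GTPase GPN2 (1.25), REEP6, which shapes the endoplasmic reticulum (1.24), the centrosome protein CCDC102B (1.23), and SPSB2, an adaptor of a ubiquitin ligase (1.12). CA10, a carbonic anhydrase-like protein without enzyme activity (1.10), RASSF4, a Ras-association protein (1.04), and NRSN1, a vesicle protein of neurons (1.01), completed them. RASSF4 was as high on the MSG arrays as on the combined diet, at 1.06 above control. The probe sets of FHDC1 disagreed, at 3.26, 1.11 and -0.41. Those of REEP6 gave 0.86, 2.98, 0.29 and 0.84 from the brightest down, and its call was lost with the brightest or with their median. With all probe sets kept, dim ones included, FHDC1 (0.45, adjusted p = 0.0684), GPN2 (0.60, adjusted p = 0.0734) and CCDC102B (0.34, adjusted p = 0.195) did not pass, nor did CA10 with its brightest probe set (0.72, adjusted p = 0.826, limma).

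Among the other named decreases was IL19, a cytokine of the interleukin-10 family. It fell from 5.00 and 4.58 to 2.67 and 2.49, near the filter level (log2 -2.21, SE 0.271, adjusted p = 0.0108, limma). It stood at -0.65 without the filter (adjusted p = 0.058) and at -1.81 with the brightest probe set (adjusted p = 0.201) or the filter at the 75th percentile (adjusted p = 0.169), and lost its call in each. NFKBIZ, a nuclear regulator of NF-kappaB target genes, fell from 5.47 and 5.43 to 3.83 and 4.12 (log2 -1.48, SE 0.189, adjusted p = 0.0122), with all 13 probe sets lower. FRK, a Src-related kinase, fell by 1.53 (SE 0.254), and GUCA2A, the gut hormone guanylin, by 1.43 (SE 0.225). The probe sets of GUCA2A gave -3.00, -0.12 and -1.17. CYP26A1, which breaks down retinoic acid, fell by 1.54 (SE 0.243). SLC44A1, a choline transporter, fell by 1.39 (SE 0.179), with 12 of its 13 probe sets lower. MIDN, which guides nuclear proteins to the proteasome, fell by 1.39, the glutathione peroxidase GPX6 by 1.39 and IQCA1L by 1.51. MIDN, GPX6 and IQCA1L each owe much of that to 1 probe set, at -4.06, -3.98 and -3.55 against medians of -0.86, -0.72 and -1.06. Without the filter FRK stood at -0.73 (adjusted p = 0.0659, limma) and IQCA1L at -0.62 (adjusted p = 0.0958), and neither passed.

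**Figure D2:**
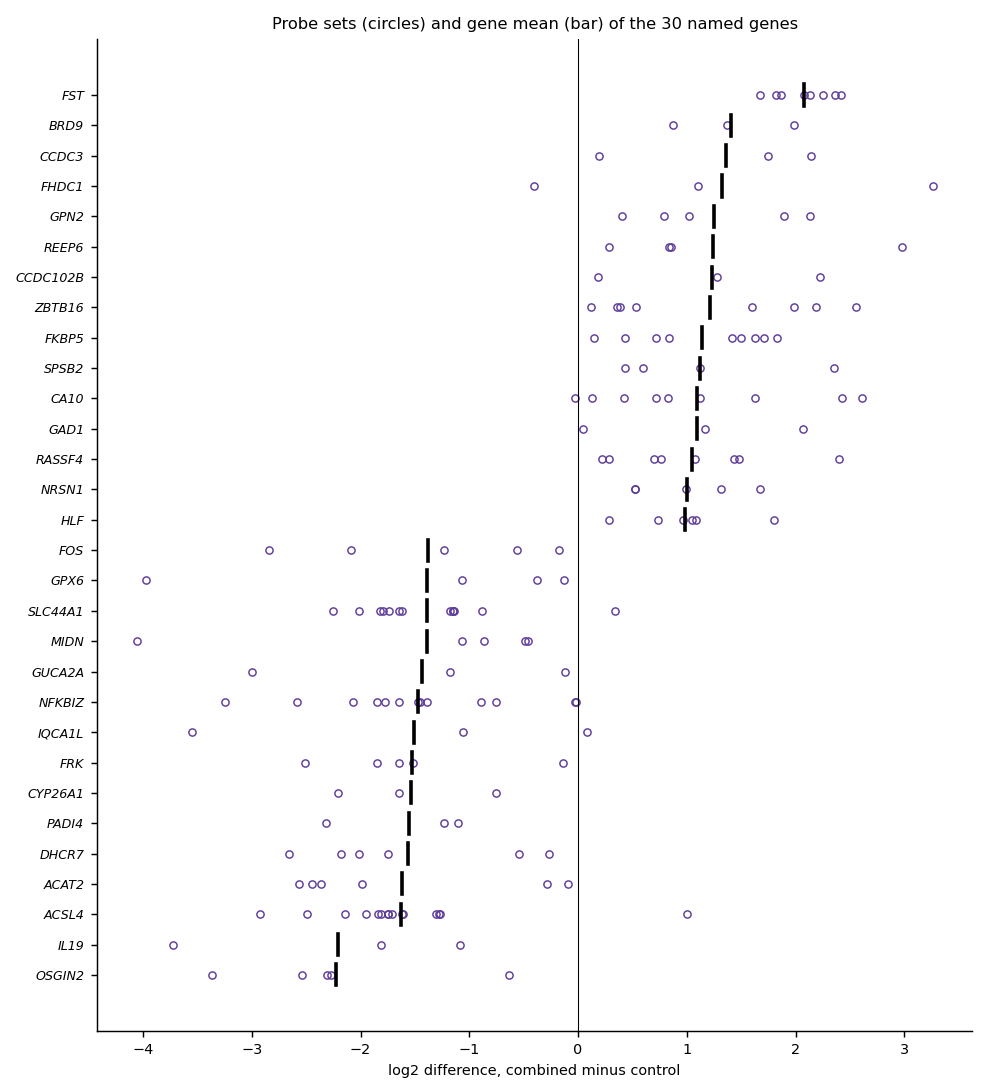
Log2 difference between the combined diet and control for each kept probe set (circles) of the 30 named genes, with the gene mean as a bar; the genes run from the largest increase at the top to the largest decrease at the bottom. All 8 circles of FST lie above 1.6, while FHDC1, MIDN and GPX6 each hold 1 circle far from the rest.

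Cholesterol synthesis held 3 falls and no rise among 17 measured members (20 in the list), beside 0.581% of all genes that fell. A negative difference was seen in 13 members, and the median was -0.45 against 0.02 for all genes. In 11 members both combined arrays lay below both control arrays, which held for 23.1% of all genes. At an unadjusted limma p under 0.05, 8 members were lower and 1 higher, against 7.54% and 8.93% of all genes. DHCR7, the enzyme of the last step of cholesterol synthesis, fell from 6.02 and 6.01 to 4.30 and 4.60 (log2 -1.57, SE 0.178, adjusted p = 0.00901, limma), a 2.96-fold lower level. EBP, the sterol isomerase upstream of it, fell from 9.77 and 9.70 to 8.30 and 8.52 (log2 -1.33, SE 0.169, adjusted p = 0.0121). ACAT2, the cytosolic thiolase that opens the pathway, fell from 6.11 and 5.81 to 3.87 and 4.81 (log2 -1.62, SE 0.296, adjusted p = 0.0409) and its combined-diet arrays stood well apart. In all 3 genes every combined array lay below every control array. IDI1, the isomerase that makes the second isoprenoid building block, stood at -0.95 and did not pass (adjusted p = 0.0981, limma).

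The same 3 enzymes were low on the trans-fat/HFCS diet, at -1.77 for DHCR7, -1.24 for EBP and -2.03 for ACAT2. On MSG they stood at -0.33, -0.55 and -0.30. The step from trans-fat/HFCS to the combined diet was 0.21, -0.09 and 0.40, and none of these passed (lowest adjusted p = 0.741 in limma, for ACAT2). The fall of DHCR7 rests on most of its 6 probe sets, since with the brightest alone the difference was -0.27 (adjusted p = 0.726, limma). EBP stood at -1.31 with its brightest probe set, just short of a call (adjusted p = 0.057), and ACAT2 at -2.08 with the median of its probe sets (adjusted p = 0.202), which was no call either. In sterol uptake and control, NPC1L1, the membrane protein that takes up free cholesterol, fell from 4.82 and 4.85 to 3.63 and 3.77 (log2 -1.13, SE 0.187, adjusted p = 0.0325). It was the only one of 16 measured members past the threshold, beside 0.581% of all genes that fell. SREBF2, the SREBP of cholesterol genes, stood at -0.55 and did not pass (adjusted p = 0.176), and with its brightest probe set it stood at 0.19.

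Fatty acid synthesis had 11 of 18 measured members with a negative difference and a median of -0.45, against 0.02 for all genes. It held 1 call, beside 0.581% of all genes that fell. ME1, the malic enzyme that supplies NADPH, fell from 5.72 and 5.38 to 4.68 and 4.48 (log2 -0.97, SE 0.180, adjusted p = 0.0432, limma), and stood at 0.26 with its brightest probe set. ACLY, which makes cytosolic acetyl-CoA, had a difference of -0.89 (adjusted p = 0.0665). SCD, the delta-9 desaturase, had -1.11 (adjusted p = 0.0673), and PGD of the pentose phosphate pathway -1.37 (adjusted p = 0.0709). At an unadjusted limma p under 0.05, 10 members were lower and 1 higher, against 7.54% and 8.93% of all genes. SCD turned to 0.58 with its brightest probe set and with the filter at the 75th percentile.

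Triglyceride synthesis leaned the other way, with 8 of 12 measured members above control and a median of 0.33. AGPAT9, a glycerol-3-phosphate acyltransferase of the first step, rose from 6.02 and 5.74 to 6.79 and 6.72 (log2 0.88, SE 0.166, adjusted p = 0.0458, limma). It was as high on MSG (6.74 and 6.73) and on trans-fat/HFCS (6.76 and 6.78). MOGAT1, at 0.73, DGAT1, at 0.53, and GPAM, at -0.69, did not pass (adjusted p = 0.112, 0.241 and 0.167). MGLL, which splits the last fatty acid from glycerol, fell by 0.86 (SE 0.158, adjusted p = 0.0419). Its probe sets disagreed, and the brightest gave 2.48 (adjusted p = 0.012, limma), a call in the opposite direction. Among 18 measured PPARA targets, genes of fat burning, 14 lay above control with a median of 0.19, and none passed in limma. At an unadjusted limma p under 0.05, 5 were higher and 1 lower, against 8.93% and 7.54% of all genes. ANGPTL4, an inhibitor of lipoprotein lipase, stood at 0.78 (adjusted p = 0.0846), and VNN1, a pantetheinase, at 1.29 (adjusted p = 0.123), with combined arrays at 5.54 and 4.23.

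**Figure D3:**
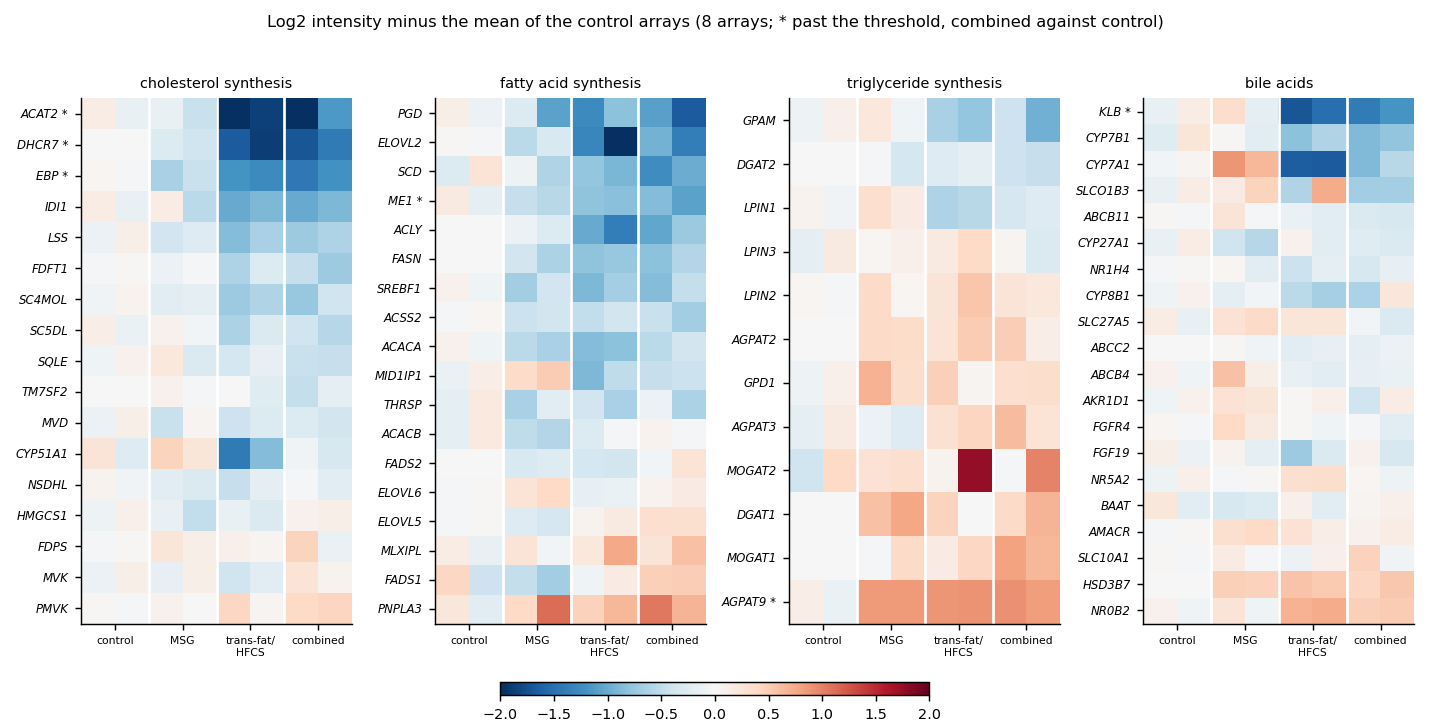
Log2 intensity minus the mean of both control arrays (colour) for every measured member of 4 lists (rows, ordered by the combined-diet difference) on the 8 arrays (columns, by diet); a star marks genes past the threshold for combined against control. ACAT2, DHCR7 and EBP are blue on both diets with trans fat and HFCS, AGPAT9 is red on all 3 diets other than control, and CYP7A1 is red on MSG and blue on trans-fat/HFCS.

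In bile acid metabolism KLB fell and 15 of 20 measured members had a negative difference, with a median of -0.15. KLB, the co-receptor through which FGF19 and FGF21 act on hepatocytes, went from 5.81 and 6.11 to 4.57 and 4.78 (log2 -1.29, SE 0.220, adjusted p = 0.0364, limma). The MSG arrays, at 6.32 and 5.78, overlapped control, and the trans-fat/HFCS arrays were lower still, at 4.25 and 4.45. CYP7A1, which sets the rate at which cholesterol is turned into bile acids, read 5.34 and 5.44 on control and 4.50 and 4.84 on the combined diet, a difference of -0.72 that did not pass (adjusted p = 0.10). It lay between the separate diets, which differed from control by -1.66 (trans-fat/HFCS) and 0.77 (MSG). CYP7B1, of the alternative pathway, stood at -0.84 (adjusted p = 0.0973), and HSD3B7 at 0.48 (adjusted p = 0.179).

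IGF1, the growth factor that liver releases under growth hormone, fell from 8.89 and 8.84 to 7.83 and 7.79 (log2 -1.05, SE 0.157, adjusted p = 0.024, limma). The MSG arrays (8.07 and 8.22) and trans-fat/HFCS arrays (8.10 and 8.06) lay between. The combined diet had the lowest values, but its steps of -0.26 from trans-fat/HFCS and -0.33 from MSG did not pass (adjusted p = 0.665 and 0.320). With the brightest of its 8 probe sets IGF1 stood at -0.33 (adjusted p = 0.341, limma). It was the only one of 19 measured genes of insulin and IGF signalling past the threshold, beside 0.581% of all genes that fell. Of the 19, 13 had a negative difference. IGF2, a fetal growth factor, stood at -0.96 (adjusted p = 0.125).

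Immediate early genes, the first to be transcribed after a signal, held 4 falls among 27 measured members and no rise, beside 0.581% of all genes that fell. ZFP36, which speeds the decay of cytokine mRNAs, went from 6.70 and 6.57 to 4.76 and 4.65 (log2 -1.93, SE 0.173, adjusted p = 0.00512, limma). It rests on 1 probe set. FOS, a subunit of AP-1, fell from 4.92 and 4.84 to 3.69 and 3.31 (log2 -1.38, SE 0.189, adjusted p = 0.0166). FOSB, its relative, fell by 1.52 (SE 0.243, adjusted p = 0.0286), but stood at -0.40 without the filter on dim probe sets (adjusted p = 0.104, limma). DUSP1 fell from 4.90 and 5.00 to 3.76 and 3.92 (log2 -1.11, SE 0.166, adjusted p = 0.024). The list median was -0.13, with 19 of 27 members negative, and it was 0.00339 with the brightest probe set per gene.

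In the acute-phase list 2 of 25 measured members fell and none rose, beside 0.581% and 0.575% of all genes. LEAP2, a liver peptide that blocks the ghrelin receptor, went from 5.10 and 5.17 to 4.23 and 3.92 (log2 -1.06, SE 0.181, adjusted p = 0.0364, limma), and stood at -0.67 with its brightest probe set (adjusted p = 0.182). HP, haptoglobin, went from 6.67 and 6.86 to 5.46 and 4.61 (log2 -1.73, SE 0.304, adjusted p = 0.0378). The brighter of its 2 probe sets gave -2.98 and the dimmer -0.48. CP and FGB, 2 other members of the list, stood at -0.49 and -0.44 (adjusted p = 0.215 and 0.239). Of 10 measured neutrophil markers 2 fell, beside 0.581% of all genes. They were S100A12, a calcium-binding alarmin (-2.17, SE 0.367, adjusted p = 0.0342, limma, 1 probe set), and PADI4, which converts arginine to citrulline (-1.55, SE 0.286, adjusted p = 0.0425). Without the filter on dim probe sets they stood at -0.47 and -0.20 and lost their calls (adjusted p = 0.154 and 0.422). On trans-fat/HFCS the differences from control were -2.76 for S100A12, -1.78 for PADI4, -1.03 for LEAP2 and -0.97 for HP. On MSG they were -1.3, -0.25, -0.92 and 0.52 in that order. The summed neutrophil marker level was 7.41 and 7.31 on control and 7.21 and 6.82 on the combined diet, and 3 of the 10 markers were positive. The same sum was 6.905 and 6.868 on trans-fat/HFCS. The granule enzymes MPO (3.13, 2.68, 3.03 and 2.72) and ELANE (3.79, 3.05, 2.96 and 3.44) overlapped between control and the combined diet, in that order. The part of neutrophils in the differences of IL19, NFKBIZ and HP was not tested.

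Matrix genes were mostly lower, with 1 call, beside 0.581% of all genes that fell. Of 32 measured members of the fibrosis and matrix list, 21 had a negative difference, the median was -0.21, and 7 were lower and 2 higher at an unadjusted limma p under 0.05, beside 7.54% and 8.93% of all genes. SPARC, a collagen-binding matrix protein, fell from 6.02 and 5.97 to 5.06 and 5.16 (log2 -0.88, SE 0.155, adjusted p = 0.0378). The fibrillar collagens COL3A1 (-0.63, 28 probe sets) and COL1A2 (-0.52, 38 probe sets) did not pass (adjusted p = 0.0981 and 0.154). COL6A1, of the microfibrillar collagen VI, went the other way without passing, from 4.17 and 4.30 to 4.68 and 4.90 (0.56, adjusted p = 0.163), with 15 of its 17 probe sets higher. On trans-fat/HFCS COL3A1 and COL1A2 differed from control by -0.09 and 0.03, and on MSG by -0.06 and -0.14. Markers of stellate cells, the collagen-making cells of the liver, were lower beside them. Their summed log2 level was 8.19 and 8.12 on control and 7.93 and 7.84 on the combined diet. Of 13 measured, 11 were negative, with a median of -0.28. None passed in limma, and 3 were lower at an unadjusted p under 0.05, beside 7.54% of all genes. The part of stellate cell content in the matrix values was not tested.

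MSG delivers glutamate, so genes that handle or sense it were examined as lists. GAD1, which turns glutamate into GABA, rose from 5.24 and 5.18 to 6.55 and 6.06 (log2 1.09, SE 0.206, adjusted p = 0.0455, limma). It was the only one of 29 measured genes of glutamate and glutamine metabolism past the threshold, beside 0.575% of all genes that rose. On MSG alone it differed from control by -0.13. Its 3 probe sets gave 2.07, 1.17 and 0.04, and the difference was 0.14 (adjusted p = 0.515) without the filter on dim probe sets. GLUL, the glutamine synthetase, stood at -0.57 (adjusted p = 0.181). Among 26 measured receptors of glutamate and umami taste, GRIN2B, an NMDA receptor subunit, fell by 0.95 (SE 0.167, adjusted p = 0.0378). Its 4 probe sets ran from -2.60 to -0.26 with a median of -0.48, its combined arrays (2.51 and 2.43) lay at the filter level, and it stood at -0.30 with no filter (adjusted p = 0.145, limma). CASR, the calcium-sensing receptor, stood at -1.04 (adjusted p = 0.0519). GADL1, a decarboxylase of cysteine sulfinate in taurine metabolism, fell by 1.72 (SE 0.288, adjusted p = 0.0334). Its probe sets gave -3.30 and -0.13, and without the filter it stood at -0.27 (adjusted p = 0.213, limma). The trans-fat/HFCS diet, which holds no MSG, differed from control by -0.84 in GRIN2B, -2.02 in GADL1, -0.996 in CASR and 0.54 in GAD1. MSG alone differed from control by -0.15 in GRIN2B, -0.07 in GADL1 and -0.33 in CASR. The part of glutamate in these differences was not tested.

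Detoxification and stress lists held few calls. Of 40 measured genes of drug metabolism 2 fell, beside 0.581% of all genes. They were CYP26A1 and the glucuronosyltransferase UGT2A3, which went from 5.80 and 5.72 to 4.45 on both combined arrays (log2 -1.31, SE 0.194, adjusted p = 0.024, limma). Without the filter UGT2A3 stood at -0.33 and did not pass (adjusted p = 0.141). The glutathione transferase GSTA4 stood at -0.99 and CYP1A1, the enzyme induced by aromatic hydrocarbons, at 0.83, and neither passed (adjusted p = 0.0604 and 0.0609). HSPB8, a small heat shock protein, fell by 1.18 (SE 0.177, adjusted p = 0.024, limma). It was the only one of 26 measured heat shock genes past the threshold, beside 0.581% of all genes that fell. HSPB8 differed from control by -1.02 on MSG and -0.54 on trans-fat/HFCS. Its call was lost with the brightest of its 3 probe sets and with their median. No gene of 26 measured in the unfolded protein response passed in limma (3 higher and 4 lower at an unadjusted p under 0.05), with a median of -0.19 and its smallest p in DNAJB11, a chaperone of the endoplasmic reticulum (-0.75, adjusted p = 0.0981). No member passed in the lists of fatty acid oxidation, lipoproteins, fructose and glucose breakdown, gluconeogenesis, urea cycle, interferon response, complement and coagulation, cell cycle, oxidative phosphorylation or nuclear receptors. Their medians lay between -0.12 and 0.13, and at an unadjusted limma p under 0.05 each held 1 to 5 higher and 0 to 3 lower members. Over all genes the shares at that level were 8.93% higher and 7.54% lower.

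Markers of other cell types held 1 call among those described here. Summed log2 levels on control and combined arrays were 8.84, 8.83, 8.99 and 8.93 for Kupffer cells and macrophages, and 8.25, 8.32, 8.63 and 8.62 for adipocytes. No marker of either type passed in limma. In each, 3 were higher and 1 lower at an unadjusted p under 0.05, against 8.93% and 7.54% of all genes. Skeletal muscle markers summed to 8.11 and 8.16 on control and 8.22 and 8.10 on the combined diet. KBTBD10, a muscle kelch protein, was the only one of the 20 past the threshold (-1.12, SE 0.173, adjusted p = 0.0267, limma), beside 0.581% of all genes that fell. It stood at -0.41 without the filter (adjusted p = 0.0888, limma).

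**Figure D4:**
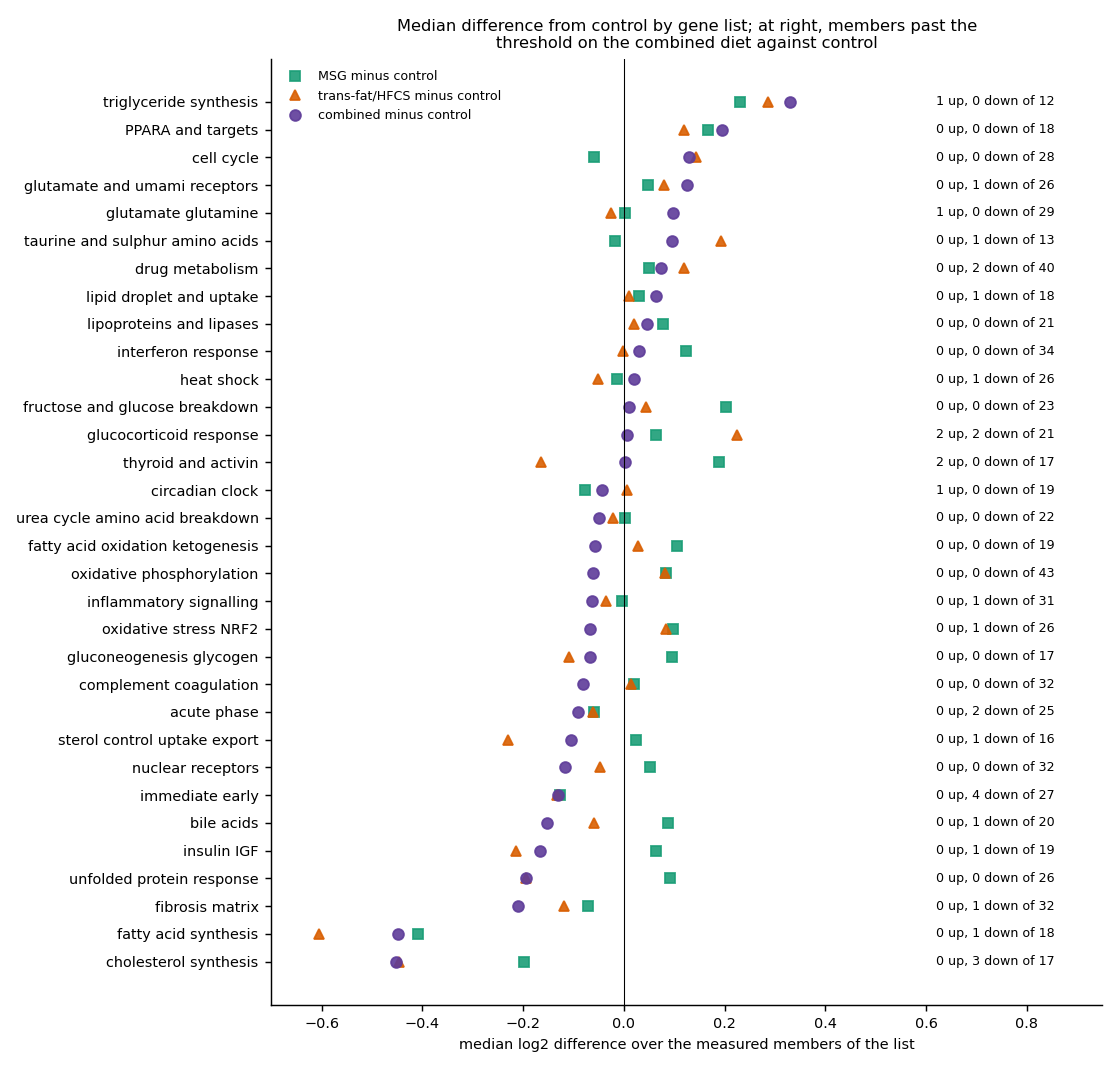
Median log2 difference from control (x axis) over the measured members of each of 32 gene lists (y axis), for the combined diet (circles), trans-fat/HFCS (triangles) and MSG (squares); counts at the right are members past the threshold for combined against control, and the 3 medians of a list share the control arrays. Cholesterol and fatty acid synthesis lie lowest, near -0.45 on the combined diet, and triglyceride synthesis highest, at 0.33.

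Values of the separate diets help to place the combined one, but the 3 contrasts share the control arrays. Against control, 444 genes (2.48%) passed on trans-fat/HFCS, 1.46% higher and 1.02% lower, and 53 (0.296%) on MSG, 0.0503% higher and 0.246% lower. Among the 15 named increases, the trans-fat/HFCS difference lay above 0 in each, from 0.07 for CCDC3 to 1.81 for FST, and the MSG difference ranged from -0.73 for FKBP5 to 2.61 for FST. Among the 15 named decreases, the trans-fat/HFCS difference ranged from -2.33 for OSGIN2 to -0.54 for GPX6 and the MSG difference from -2.18 for OSGIN2 to 0.12 for GPX6. FOS and NFKBIZ were low on MSG too, at -1.19 and -1.49.

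**Figure D5:**
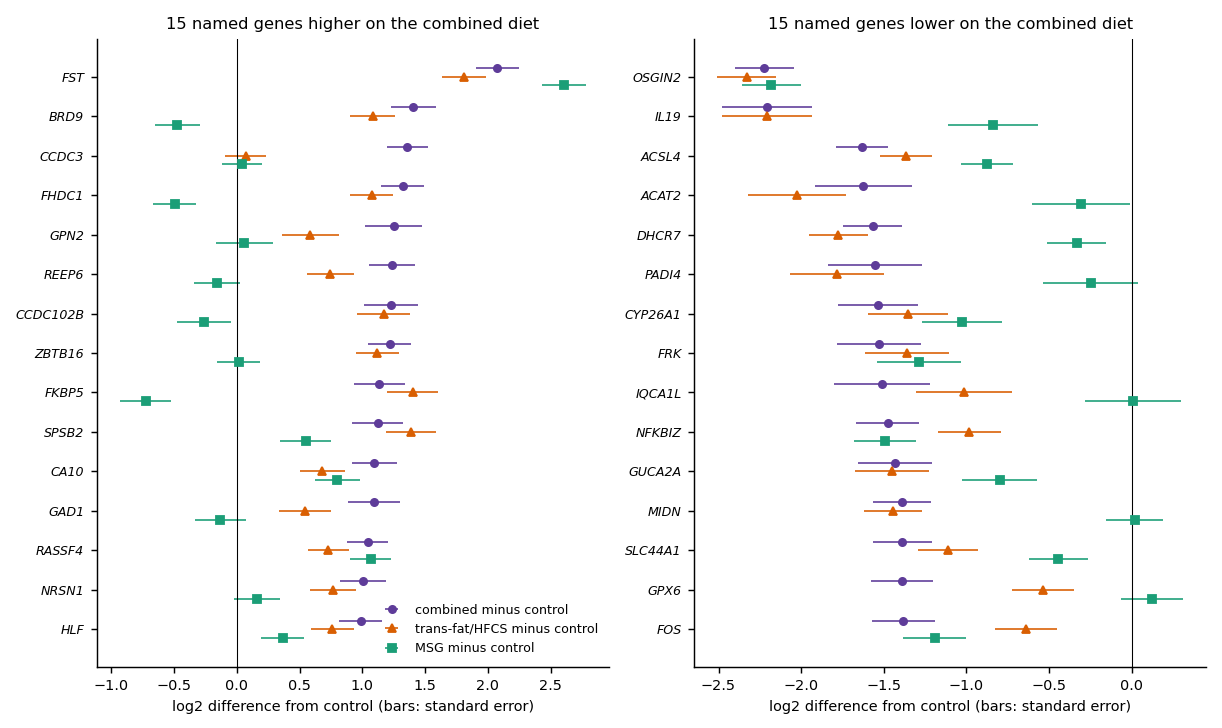
Log2 difference from control (x axis) of the 15 named increases and 15 named decreases on the combined diet (circles), trans-fat/HFCS (triangles) and MSG (squares), with limma standard errors as bars; all 3 share the control arrays. For CCDC3 only the circle lies away from 0, for FKBP5 the MSG square lies at -0.73, and for OSGIN2 all 3 lie between -2.33 and -2.18.

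The combined diet was next set against the trans-fat/HFCS diet, which lacks only the MSG. Of 17910 genes 8 were higher (0.0447%) and 24 lower (0.134%), 0.179% in all. CEL, a bile salt-dependent lipase, read 2.75 and 2.53 on trans-fat/HFCS and 4.16 and 4.30 on the combined diet (log2 1.59, SE 0.208, adjusted p = 0.0274, limma). Control (4.71 and 5.14) and MSG (5.02 and 5.35) were higher, and the combined diet did not pass against control (-0.69, adjusted p = 0.151). CCDC3 was 1.29 higher (SE 0.162, adjusted p = 0.0258). The named genes that were lower were 6 of skeletal muscle, among them the myosin light chain MYL1 (-3.14, SE 0.182) and the actin ACTA1 (-3.03, SE 0.165), each with an adjusted p = 0.00016 in limma. TPM2 (-2.26), MYBPC1 (-2.16) and the myosin heavy chains MYH1 and MYH2 completed them. MYH1 read 5.48 and 5.32 on trans-fat/HFCS and 2.41 and 2.53 on the combined diet, and MYH2 5.06 and 4.86 against 2.87 and 2.26, so on the combined diet both lay near the filter level, and their differences have no exact size. These genes were high on the trans-fat/HFCS arrays alone: MYL1 read 6.45 and 6.49 there, 3.16 and 3.50 on the combined diet and 3.30 and 3.10 on control. Of 20 measured skeletal muscle markers 15 were lower on the combined diet, and their summed level was 9.94 and 9.95 on the trans-fat/HFCS arrays against 8.22 and 8.10. The source of the muscle RNA was not tested. The count was between 9 (without trans-fat/HFCS array 1) and 25 (without combined-diet array 2) when 1 array was left out, and 13 without either control or either MSG array.

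Set against the MSG diet, which lacks the trans fat and HFCS, the combined diet gave 169 higher genes (0.944%) and 128 lower (0.715%), 1.66% in all. Of the 6 named increases 5 were also named against control: BRD9 (1.88), FKBP5 (1.86), FHDC1 (1.82), CCDC102B (1.49) and REEP6 (1.40). CHGB, a granule protein of neuroendocrine cells, was 1.42 higher (SE 0.173, adjusted p = 0.0062, limma). It read 4.41 and 4.66 on control, 4.28 on both combined arrays, and 2.78 and 2.93 on MSG, so that MSG was the low group. Likewise 4 of the 6 named decreases were high on MSG alone. DUSP1 was 2.60 lower (SE 0.166, adjusted p = 0.000345), SLC25A25, a mitochondrial ATP-Mg carrier, 2.19 lower (SE 0.182), DIO2, which activates thyroxine, 1.79 lower (SE 0.177) and the nuclear receptor NR4A2 1.52 lower (SE 0.209). SLC25A25 read 4.34 and 4.45 on the combined diet, 4.53 and 4.42 on control and 6.79 and 6.39 on MSG. PLBD1, a phospholipase B-like protein (-1.81), and PGM2L1, a glucose 1,6-bisphosphate synthase (-1.59), were the others. CYP7A1 was 1.49 lower than on MSG (adjusted p = 0.00624, limma), and KLB 1.38 lower (adjusted p = 0.021). Without MSG array 1 or 2 the count was 54 or 62, and it was 153 or 145 without combined-diet array 1 or 2 and 172 without either control array.

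Past the threshold against each of the 3 other diets were 4 genes: CCDC3, ZNF703, SPAG5 and KIAA1239. The last 3 lie outside the rule for naming and were singled out after their values were seen. ZNF703, a zinc finger protein, read 5.12 and 4.57 on control and 7.05 and 6.62 on the combined diet (log2 1.99, SE 0.228, adjusted p = 0.0095, limma), with 1 probe set at 3.70 and the brighter one at 0.27 (adjusted p = 0.424 with it alone). SPAG5, a protein of the mitotic spindle, was 0.86 lower than control (adjusted p = 0.0443), with probe sets at -3.10, 0.63 and -0.11, and turned to 0.55 with their median. KIAA1239 rests on 1 kept probe set, stood at -0.24 against control without the filter on dim probe sets (adjusted p = 0.3, limma), where its call was lost, and lay between the other diets, at 10.55 and 10.76 on control, 8.91 and 8.71 on the combined diet and 6.57 and 6.40 on trans-fat/HFCS.

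The last comparison asked whether the combined diet differed from the sum of the separate diets' differences from control. The departure is the combined difference minus those of trans-fat/HFCS and MSG, so 0 means that they add up on the log2 scale. limma called 11 genes above the sum (0.0614%) and 16 below it (0.0893%), 0.151% in all. Genes also called against control numbered 5: FST, OSGIN2, DUSP1, SPAG5 and KIAA1239. For FST the combined difference was 2.08, beside 1.81 and 2.61 on the separate diets, a departure of -2.34 (SE 0.244, adjusted p = 0.0126, limma). For OSGIN2 it was -2.22 beside -2.33 and -2.18, a departure of 2.29 (SE 0.252, adjusted p = 0.0158). Both genes thus had on each separate diet about the whole difference that they had on the combined one, and these differences share the control arrays. DUSP1 took another course, with 1.49 on MSG, -0.33 on trans-fat/HFCS and -1.11 on the combined diet, a departure of -2.27 (SE 0.235, adjusted p = 0.0126).

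TMEM41A, a membrane protein of the endoplasmic reticulum, read 6.90 and 6.22 on control, 6.46 and 6.70 on the combined diet, 4.16 and 4.36 on MSG and 5.69 and 5.86 on trans-fat/HFCS, a departure of 3.10 (SE 0.333, adjusted p = 0.0141, limma). SLC25A21, the mitochondrial carrier of oxodicarboxylates, stood at -0.62 on the combined diet and at -1.40 and -1.38 on the separate diets (departure 2.17, SE 0.272, adjusted p = 0.0289). Of the other named departures, the muscle genes MYL1 (-3.21), ACTA1 (-3.08), TPM2 (-2.32), MYH1 and MYH2 departed downwards, with their high values on trans-fat/HFCS alone. The count fell to 6 without either control array, 5 without either MSG array, 9 without trans-fat/HFCS array 1 and 15 without trans-fat/HFCS array 2.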

How the data were processed

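Cat liver RNA was measured on 8 Affymetrix HuGene 1.0 ST arrays, 2 for each of 4 diets, from 250 ng of total RNA each. Pooling of RNA is not stated. The intensities deposited by the authors, 1 per probe set, are linear and normalized. The submitters' processing notes list Partek, GCRMA and hg19, with no version or order. Log2 was taken here. Of 257101 probe sets, 128550 lay above the median of all (log2 2.43, intensity 5.38). Those with 1 gene in the platform annotation, 111624, were averaged per gene, which gave 17910 genes with a median of 5 probe sets. Symbols are those of that annotation, and 75.8% matched the cat gene table F.catus_Fca126_mat1.0, used for names only. Some genes of the lists are not analysed here. A probe set can change through a sequence difference between cats without a change in expression.

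In limma 3.58.1 (R 4.3.3) 1 model of the 4 diets covered all 8 arrays (4 residual degrees of freedom, prior 5.01), with two-sided tests, Benjamini-Hochberg adjustment over all genes and a threshold of 0.05. Standard errors are limma's. On data simulated for combined against control with 17910 genes, 62% of 100 genes changed 2-fold and 98% of 100 changed 4-fold were called, with 6 false calls. The simulated noise was normal, independent between genes and drawn with limma's own variances, and no other gene changed. The simulation therefore gives no error rate for the real arrays.

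The members and lists were chosen with earlier results of these data known. Named genes are the 15 largest increases and 15 largest decreases against control (6 each in other comparisons). They pass the threshold, rest on at least 3 probe sets whose median is at least 50% of the mean, and are in the cat table; non-coding RNAs, olfactory receptors and loci without a described product were passed over. Up to 4 members of smallest p, and all that passed, are named per list. No set test was run. Lists are described by counts and medians, and summed levels are log2 of the summed intensities. Alternatives were the filter, the summary of probe sets, an added constant, quantile normalization, an intensity trend, fewer arrays and a replicate block.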

Additional observations from a re-analysis of the deposited data

Results flagged for a closer look

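Of the 27 genes past the threshold for the departure from the sum, 12 are named in the text. In these the difference between arrays with and without MSG was not the same on chow as on the trans-fat/HFCS base, by limma. The muscle genes among them were high on the trans-fat/HFCS arrays alone, and the source of the muscle RNA was not tested. The departures on the log2 scale were -3.213 for MYL1, -3.08 for ACTA1, -2.854 for MYH1, -2.323 for TPM2 and -2.302 for MYH2, genes of skeletal muscle. The values of MYH1 and MYH2 involve levels near the filter on dim probe sets and have no exact size. They were 3.104 for TMEM41A, 2.165 for SLC25A21, -2.344 for FST, 2.286 for OSGIN2, -2.271 for DUSP1, 2.076 for KIAA1239 and -1.605 for SPAG5. In FST and OSGIN2 each separate diet differed from control by about as much as the combined diet did, and these differences share the same 2 control arrays. In SPAG5 and KIAA1239 the value rests on 1 probe set of 3 and on a single probe set. With 2 arrays a diet, single arrays were not tested as outliers.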

How the results depend on the processing

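Under 18 alternatives, 51 of the 54 named genes called against control kept their sign, and ME1, MGLL and SPAG5 did not. None kept its call in each, since limma called no gene without either control array. FST, OSGIN2 and ZFP36 passed in 16 of 18. HLF, SPSB2, NRSN1, IQCA1L, ME1, AGPAT9, MGLL, GRIN2B, SPARC and SPAG5 lost their call whichever array was left out. For combined against control (207 genes, 103 higher and 104 lower), limma called 513 (297 and 216) with the filter at the 75th percentile, 44 (26 and 18) with the median of probe sets, 730 (486 and 244) with the brightest probe set, 593 (318 and 275) with log2(value + 10), 406 (213 and 193) with an intensity trend and 25 (14 and 11) with the 4 arrays alone. Among these were 150, 33, 114, 205, 206 and 24 of the 207. The same settings in that order gave 11, 14, 17, 59, 49 and 7 against trans-fat/HFCS (32), 743, 100, 986, 792, 487 and 137 against MSG (297), and, without the last setting, 14, 5, 56, 67 and 41 for the departure (27). Leaving out 1 array gave 0 to 145 genes (0 to 77 higher, 0 to 73 lower) against control, 9 to 25 against trans-fat/HFCS, 54 to 233 against MSG and 5 to 20 for the departure. A diet left with 1 array was assumed to vary like the others. With no filter on dim probe sets and all 8 arrays, limma called 234 genes against control (113 higher and 121 lower). The count was similar, but only 122 of these were among the 207.

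Deviations of same-numbered arrays from their diet means correlated between -0.0555 and 0.0433. Litters are not named, and a correlation over all genes cannot show whether such arrays share more than a number. With a replicate block the counts were 96 (47 higher and 49 lower) against control, 14 against trans-fat/HFCS, 212 against MSG and 11 for the departure. Differences turned sign with the brightest probe set in ME1 (0.26), MGLL (2.48), SREBF2 (0.19), SCD (0.58), SLC6A6 (0.10) and BAG5 (-0.10), with the filter at the 75th percentile in SCD (0.58) and with the median of probe sets in SPAG5 (0.55). The cause was not tested. Of the values of 106 genes, 54 of them called, 1398 were unchanged in call and direction, 444 lost a call and 56 gained one. A gene not called in either setting counts as unchanged, and only the 54 called genes could lose a call. The 1398 therefore do not measure how stable the calls were. A search of promoters for motifs was not run, as no promoter sequences were used here.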
